A study of Homo sapiens with 10 samples.

Results

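Marrow homing and adhesion receptors are the surface molecules with which a leukaemia cell senses chemoattractants and holds on to other cells or matrix in the bone marrow. The set described here holds 7 genes, CXCR4, CCR7, S1PR1, SELPLG, CD44, ICAM3 and PECAM1, which were listed by symbol as receptors outside the integrin family and matched by gene identifier to the count files. All 7 were found among the 63677 identifiers in the files, of which 52526 have a gene name in GENCODE 29.

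The libraries come from RS4;11, an established cell line of B-cell precursor acute lymphoblastic leukaemia (BCP-ALL) with a KMT2A rearrangement. The 5 VEN-insensitive (VENins) lines had been exposed in parallel to rising concentrations of venetoclax (VEN), an inhibitor of the anti-apoptotic protein BCL-2, and were then held under the drug. The 5 VEN-sensitive (VENsens) lines had received only the solvent, DMSO, and were kept free of VEN. RNA was taken after a wash that cleared the drug, and 1 library per line was sequenced. All lines descend from one parental line, so that the replicates are separately kept cultures and not separate leukaemias. The gene counts per library were between 20631907 and 28323643 in VENsens and between 21145316 and 25394653 in VENins lines. Levels are given as CPM, the reads of a gene relative to its library's total, after TMM normalization, a scaling of the libraries that assumes most genes keep their level. The question asked here is whether the receptors for marrow homing and adhesion had other transcript levels in lines that had become insensitive to VEN.

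Lymphoid precursors are drawn to and kept in the marrow by the chemokine CXCL12, which stromal cells release and which binds CXCR4. Sphingosine-1-phosphate (S1P), abundant in blood, acts through S1PR1 in the opposite direction and draws lymphocytes out of tissues. Rolling on the vessel wall uses selectins and their sugar-bearing ligands, CD44 anchors cells to hyaluronan in the matrix, and receptors of the immunoglobulin family hold cells to each other. In BCP-ALL, CXCR4 and CD44 have long been studied for the shelter that contact with stroma gives to leukaemia cells.

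The cell type was checked against marker genes. All 12 markers of B-cell precursors passed the filter on low counts, with IGLL1, part of the surrogate light chain, the most abundant at 723 CPM and a summed level of 3713 to 3807 CPM in VENsens and 3641 to 4069 CPM in VENins lines. PAX5, the B-lineage regulator, was the only one of them called by edgeR with the line number (log2 fold change -0.31, SE 0.053, adjusted p = 0.0272, 1.24e-06 to 0.242 over 13 alternatives), a call lost without line pairs 2, 3 or 5. The 6 markers of KMT2A-rearranged leukaemia were all tested and none was called, at a summed 2525 to 2913 CPM in VENsens and 2346 to 2520 CPM in VENins lines, led by CDK6 at 1774 CPM. MME, the common ALL antigen, had 1.05 CPM. Of 8 T-cell markers, TRAC was not found under that name and only CD3E was tested, at 0.859 CPM, while CD8A was listed at 0. Of 8 endothelial markers 3 were tested, led by EGFL7 at 13.3 CPM, while CDH5, the cadherin that defines endothelium, was listed at 0 and the list summed to 19.1 to 21.6 CPM in VENsens and 14.8 to 22.2 CPM in VENins lines. Of 8 stromal markers 3 were tested, led by PDGFRB at 13.9 CPM, with DCN, LUM and VCAM1 listed at 0. Of 8 myeloid markers 4 were tested, led by CSF1R at 9.51 CPM, with S100A8 and S100A9 listed at 0. An exact 0 in these files does not show that a transcript was absent, as described with PECAM1. The other tested markers of these lists were KDR at 3.09 and TIE1 at 2.54 CPM (endothelial), LEPR at 3.88 and COL1A1 at 2.72 CPM (stromal), and ITGAM at 4.55, CD14 at 0.483 and LYZ at 0.413 CPM (myeloid). Markers that had reads but missed the filter ranged from 0.00393 CPM (CD4) to 0.297 CPM (CLDN5). TIE1, an endothelial receptor described here after its values were seen, was lower in all VENins lines than in any VENsens line, at 2.91 to 3.79 CPM in VENsens and 0.695 to 2.79 CPM in VENins lines (log2 fold change -0.93, SE 0.22, adjusted p = 0.0877 in edgeR and 0.0323 in DESeq2 with the line number, 4.34e-07 to 0.484 over the 12 alternatives that gave one). In bulk RNA, fewer cells that carry a transcript and less of it per cell cannot be told apart.

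Lines differed from each other beyond counting error within both groups, and VENins line 5 stood furthest from its group. The chi-square over degrees of freedom between its counts and those of another VENins line was 13.3 to 14.3, against 4.29 to 9.63 between the other VENins lines. Leaving out line pair 4, a line of each group, raised the number of genes called between the groups by edgeR from 33 to 331. With VENins line 4 or VENins line 5 alone left out, alternatives added after values were seen, edgeR without the line number went from 149 to 783 and 502.

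None of the 7 receptors passed the adjusted threshold between VENins and VENsens lines. CXCR4 was higher in 4 of 5 VENins lines than in any VENsens line, and CD44 was lower in 3 of 5, with VENins line 4 at the level of the VENsens lines for both. S1PR1 was close to its detection limit in VENins line 5, ICAM3 and CCR7 gave overlapping values, SELPLG rested on few reads and PECAM1 had no count in any library. For the test, edgeR's quasi-likelihood model with group and line number as terms was fitted to all 16756 genes that passed the filter, and Benjamini-Hochberg adjusted p-values under 0.05 were called. Of 6 tested receptors, 0 were called, where 0.197% of all tested genes were (33, 6 higher and 27 lower in VENins lines). DESeq2 gave no adjusted p for S1PR1 and SELPLG, so that neither could be called. Of the other tested receptors it called 0 either way, while it called 1.3% (line number in the model) and 4.41% (line number left out) of all tested genes. These shares count genes without an adjusted p as not called, so that the share over genes with one would be higher. CXCR4 and CD44, 2 of the 6, had an unadjusted p under 0.05, where 16.2% of all tested genes had such a p. For 0 of the 6 the values of the groups did not overlap, which held for 4.66% of all tested genes. Their median log2 fold change was -0.11, beside 0.0035 over all tested genes, with 2 higher and 4 lower.

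CXCR4, on chromosome 2, encodes the G-protein-coupled receptor for CXCL12 and was the most abundant of the receptors in the set that had reads. In VENsens lines 1 to 5 its level was 382, 438, 389.6, 413 and 404 CPM, and in VENins lines 1 to 5 it was 480.2, 471, 453, 385 and 460.0 CPM. VENins lines 1, 2, 3 and 5 lay above all VENsens lines, whereas VENins line 4 lay between the lowest pair of VENsens lines, so that the groups overlapped. With 9047 to 11516 reads per library, the counting error of each value was small; the 95% Poisson interval of VENins line 4 was 377 to 393 CPM and that of VENins line 1 was 471 to 489.6 CPM. Such intervals cover counting error only. The group means were 405 CPM ± 22.1 (SD, n = 5) in VENsens and 449.8 CPM ± 37.7 (SD, n = 5) in VENins lines. The log2 fold change was 0.15 (SE 0.060, 95% interval 0.020 to 0.28), a ratio of 1.11, with an adjusted p of 0.243 in edgeR's test. Without line pair 4 the log2 fold change was 0.21 and CXCR4 was not called (adjusted p = 0.122, edgeR). With VENins line 4 alone left out, a setting chosen after its value was seen, it was 0.20 with an adjusted p of 0.0255 in edgeR without the line number, where 4.65% of 16836 tested genes were called. Over 13 alternatives the adjusted p ran from 0.0255 to 0.584.

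CCR7, on chromosome 17, is the receptor that guides lymphocytes along CCL19 and CCL21 into lymphoid tissue, and it has been linked to entry of lymphoid leukaemia into the central nervous system. Its level was 2.95, 3.97, 2.92, 3.60 and 3.59 CPM in VENsens lines 1 to 5, and 2.3, 3.07, 3.34, 2.36 and 4.18 CPM in VENins lines 1 to 5. VENins lines 1 and 4 were below and VENins line 5 was above every VENsens line. Each value rested on 49 to 96 reads, and the Poisson intervals of the lowest and the highest VENins line, 1.70 to 3.04 and 3.39 to 5.11 CPM, did not meet. This gave a log2 fold change of -0.17 (SE 0.15, 95% interval -0.49 to 0.15, adjusted p = 0.617, edgeR), which was -0.063 without line pair 4 and -0.28 without line pair 5.

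S1PR1, on chromosome 1, encodes the receptor for S1P that lets lymphocytes leave lymphoid organs and marrow. It was counted at 1.04, 1.55, 1.62, 1.39 and 1.36 CPM in VENsens lines 1 to 5, and at 0.940, 0.981, 1.71, 1.10 and 0.174 CPM in VENins lines 1 to 5. VENins line 5, with 4 reads, was far below the rest, VENins lines 1 and 2 were slightly below the lowest VENsens line, and VENins line 3 was above all of them. A library with 20 to 46 reads, as the other 9 had, cannot separate values this close, but the Poisson interval of VENins line 5, 0.0475 to 0.446 CPM, lay below that of every other line. VENins lines had a log2 fold change of -0.55 (SE 0.28, 95% interval -1.14 to 0.049, adjusted p = 0.350, edgeR), and -0.24 without line pair 5 (adjusted p = 0.593, edgeR; 0.150 to 0.719 over the 11 alternatives that gave one).

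SELPLG, on chromosome 12, encodes PSGL-1, the mucin that binds P-selectin and the other selectins once it carries the right sugars. Its reads numbered 13, 12, 17, 14 and 18 in VENsens lines 1 to 5, and 8, 11, 24, 20 and 8 in VENins lines 1 to 5, all between 0.349 and 0.976 CPM. VENins lines 1, 2 and 5 were below and VENins lines 3 and 4 above all VENsens lines, and the VENsens values lay closer together than counting error alone would spread them (SD 0.414 of the Poisson SD). Its log2 fold change was -0.059 (SE 0.28, 95% interval -0.66 to 0.54, adjusted p = 0.946, edgeR), no difference was detectable at this depth, and the sign changed when line pairs 1, 2 or 5 were left out.

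CD44, on chromosome 11, is the main receptor for hyaluronan and, when glycosylated in certain ways, also a ligand of E-selectin. Its level was 39.5, 43.6, 40.5, 35.6 and 39.5 CPM in VENsens lines 1 to 5, and 27.1, 30.1, 34.2, 41.2 and 36.2 CPM in VENins lines 1 to 5. VENins lines 1, 2 and 3 were below every VENsens line, VENins line 5 was just above the lowest of them, and VENins line 4 was higher than all VENsens lines but line 2. The means were 39.7 CPM ± 2.84 (SD, n = 5) in VENsens and 33.8 CPM ± 5.46 (SD, n = 5) in VENins lines. The log2 fold change was -0.24 (SE 0.093, 95% interval -0.44 to -0.045), a ratio of 0.845, with an adjusted p of 0.216 in edgeR's test. Without line pair 4 it was -0.36 with an adjusted p of 0.0355 (edgeR; 0.0339 to 0.674 over 13 alternatives), so that 1 of 6 receptors was called where 1.97% of 16768 tested genes were. The gene has many alternative exons, and gene counts do not tell its isoforms apart.

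**Figure D1:**
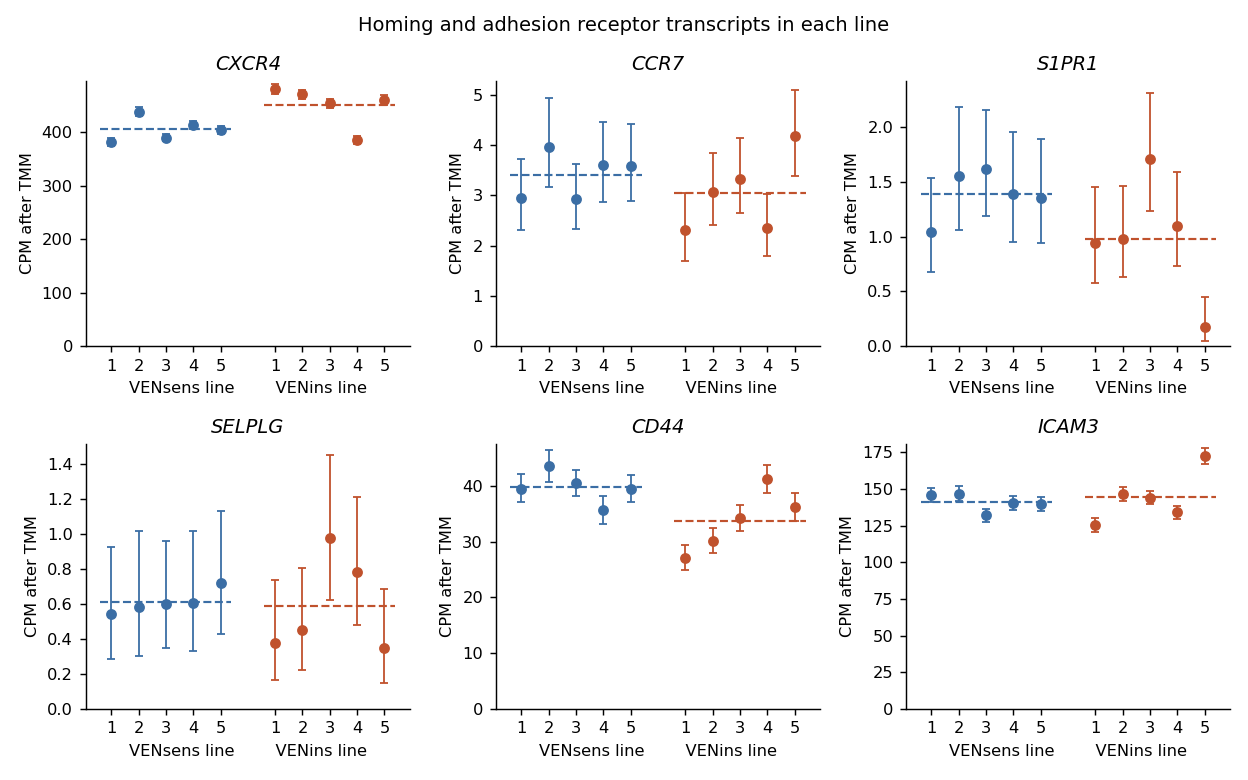
CPM of the 6 detected receptors (vertical axes, from 0) in VENsens lines 1 to 5 (blue) and VENins lines 1 to 5 (orange). Points are single libraries, bars are 95% Poisson intervals of the counts, and dashed lines are group means; VENins line 4 lies among the VENsens lines for CXCR4 (385 CPM) and CD44 (41.2 CPM), and VENins line 5 is lowest for S1PR1 (0.174 CPM).

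ICAM3, on chromosome 19, is an adhesion molecule of resting leukocytes that binds the integrin LFA-1. It had 146, 147, 132, 140.3 and 139.8 CPM in VENsens lines 1 to 5, and 125.5, 147, 144, 134 and 173 CPM in VENins lines 1 to 5. VENins line 1 was below and VENins line 5 above every VENsens line, while VENins lines 2, 3 and 4 lay within the VENsens range. Between the groups, the log2 fold change was 0.030 (SE 0.068, 95% interval -0.11 to 0.17, adjusted p = 0.873, edgeR) and was -0.039 without line pair 5. An antisense gene annotated on the opposite strand covers 71.2% of the ICAM3 exons; that gene has no entry in the files, and the library kit does not mark strand, so that reads of ICAM3 and its antisense partner cannot be told apart.

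PECAM1, on chromosome 17, encodes CD31, an adhesion molecule of the immunoglobulin family on endothelium and many leukocytes that recruits the phosphatases PTPN6 and PTPN11. It was listed with 0 reads in all 10 libraries. Its neighbours on the chromosome were counted, TEX2 with 489 to 751 and MILR1 with 65 to 90 reads per library. A 0 in these files does not by itself show absence of a transcript: all 37 genes of the mitochondrial chromosome are listed at 0 in every library. Of 19376 protein-coding genes, 3307 are listed at 0 in every library, and silent genes among them cannot be told from uncounted ones. CD99 and CD24, surface molecules named here after their values were seen, are at 0 too. The cause was not tested, and no comparison of PECAM1 is given.

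**Figure D2:**
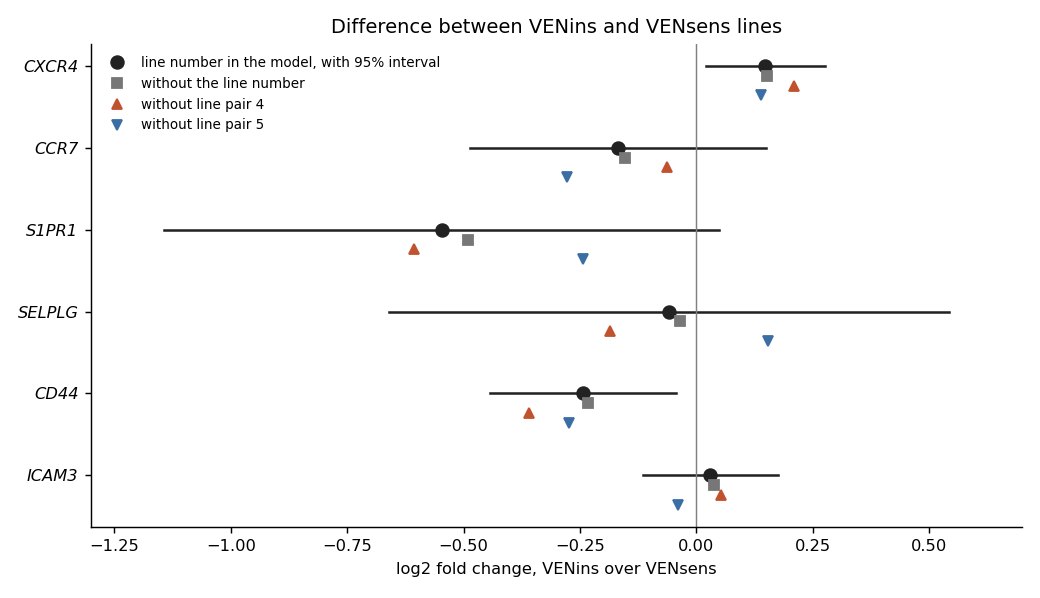
Log2 fold change of VENins over VENsens lines (horizontal axis) for each tested receptor. Black circles with 95% intervals are from edgeR with the line number as a term, grey squares from the same test without it, and triangles leave out line pair 4 (orange, pointing up) or line pair 5 (blue, pointing down); CD44 goes from -0.24 to -0.36 without line pair 4 and S1PR1 from -0.55 to -0.24 without line pair 5.

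To compare levels between genes, counts were divided by the length of each gene's merged exons and scaled to the same total in each library, as TPM. On this scale, the mean level over the 10 lines was 511 TPM for CXCR4, 129 for ICAM3, 9.79 for CD44, 3.43 for CCR7, 0.639 for SELPLG and 0.607 for S1PR1. CXCR4 was number 114 by level among 19376 protein-coding genes. Of these, 3307 are listed at 0 in every library and have an unknown level, so that the rank holds only among genes with reads. Each receptor from CXCR4 to CCR7 had a higher TPM than the next one in 10 of 10 lines. SELPLG and S1PR1 swapped places in 5 of 10 lines and could not be ordered; by CPM without gene length S1PR1 came ahead. The CD44 length of 10004 bases includes its alternative exons, and a shorter expressed isoform would have a higher TPM than given here.

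**Figure D3:**
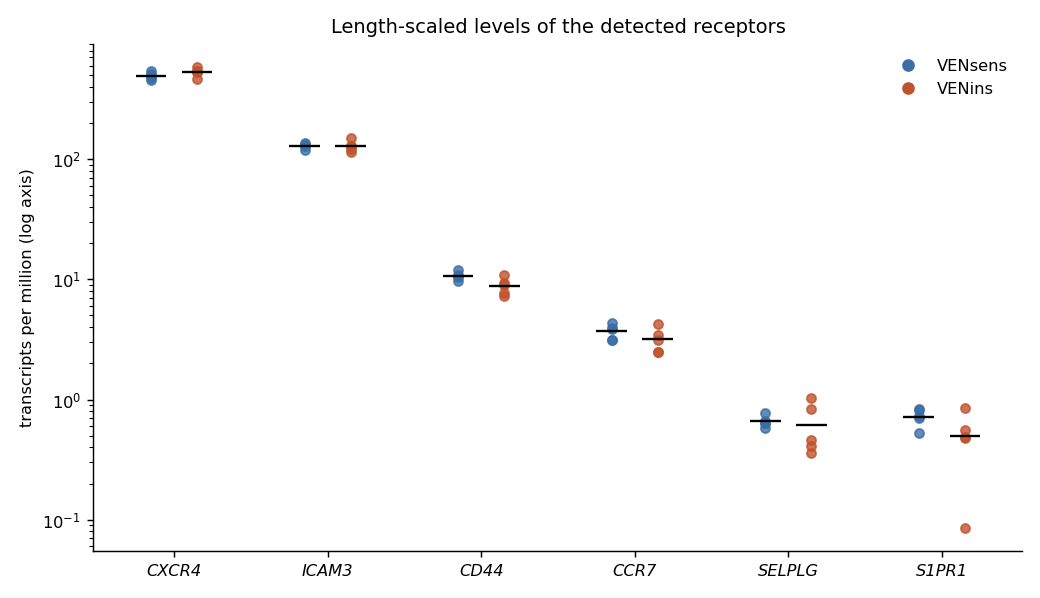
Length-scaled level (TPM, log axis) of the 6 detected receptors. Each point is 1 library, blue for VENsens and orange for VENins lines, and black bars are group means; the means over all lines range from 511 TPM for CXCR4 to 0.607 TPM for S1PR1.

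The spread between lines was larger in VENins than in VENsens lines for each of the 6 receptors when all 10 lines were used, and for CXCR4 this rested on VENins line 4. The coefficient of variation of the CPM in VENins lines, divided by that in VENsens lines, was 1.54 for CXCR4, 1.9 for CCR7, 3.45 for S1PR1, 4.39 for SELPLG, 2.27 for CD44 and 2.90 for ICAM3. Over all 14616 tested genes with a mean of at least 1 CPM, 63.3% had the larger coefficient in VENins lines, with a median ratio of 1.22. VENins lines 4 and 5 were then left out in turn, a step added after these ratios were seen. Without VENins line 4 the ratio of CXCR4 turned to 0.464, and the SD between its VENins lines went from 8.64 to 2.63 times the Poisson SD, against 5.38 times between VENsens lines. Without VENins line 5 the ratio of S1PR1 was 1.87 and that of ICAM3 1.67, and over all genes 48.4% had the larger coefficient in VENins lines, with a median ratio of 0.975. Over all genes, 61.7% had the larger coefficient in VENins lines without VENins line 4, with a median ratio of 1.205. CCR7, SELPLG and CD44 kept ratios of 1.39 to 5.08 in both cases. The ratio of SELPLG rests on a VENsens SD of 0.414 of the Poisson SD, below counting error. The mean of SELPLG, 0.598 CPM, also lies below the 1 CPM asked of the genes compared. For S1PR1 and CCR7 the VENsens SD was 0.934 and 1.21 of the Poisson SD, so that their ratios too rest on a VENsens spread close to counting error. The ratios were not tested.

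Among VENins lines, CXCR4 and CD44 ran nearly in opposite order. VENins line 1 had the highest CXCR4 and the lowest CD44, VENins line 2 was next for both, and VENins line 4 had the lowest CXCR4 and the highest CD44. VENins lines 3 and 5 lay close together for CXCR4 at 453 and 460.0 CPM and for CD44 at 34.2 and 36.2 CPM. In VENsens lines the order was not opposite throughout, as VENsens line 2 was highest for both, at 438 CPM of CXCR4 and 43.6 CPM of CD44. VENsens line 4 was next for CXCR4, at 413 CPM, and lowest for CD44, at 35.6 CPM. No correlation is given, since each group holds only 5 lines.

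**Figure D4:**
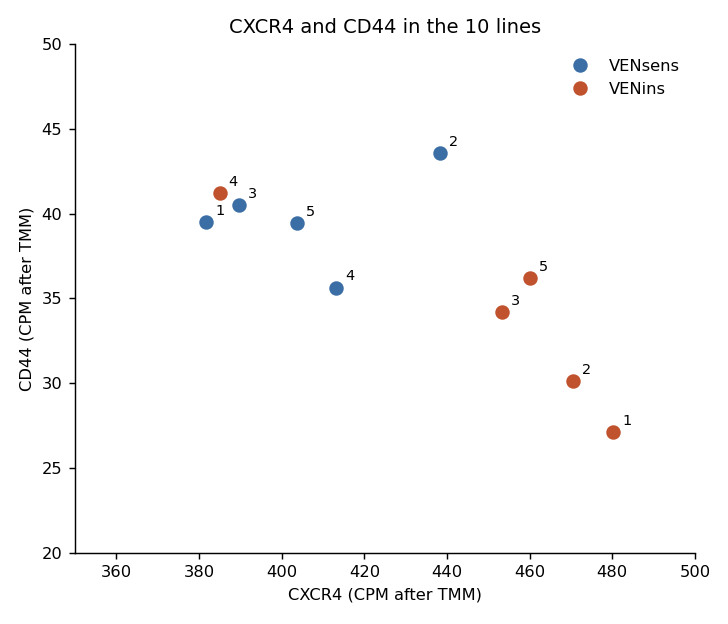
CD44 (vertical axis) against CXCR4 (horizontal axis) in CPM, neither axis starting at 0, in the 10 lines, numbered within VENsens (blue) and VENins (orange). VENins lines 1, 2, 3 and 5 lie at 453 CPM or more of CXCR4, and VENins line 4, at 385 CPM of CXCR4 and 41.2 CPM of CD44, lies among the VENsens lines.

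The genes with the most similar profile over the 10 lines were sought among 11138 protein-coding genes with a mean of at least 1 CPM, by the root mean square difference of log2 CPM after each gene's mean was subtracted. For CXCR4 they included CACNB3 and CAST, both at 0.043 on the log2 scale, where CXCR4 itself had an SD of 0.13. CAST had 50.9 to 59.2 CPM in VENsens lines, 61.3 to 62.0 CPM in VENins lines 1, 2, 3 and 5 and 53.9 CPM in VENins line 4, a pattern by which it was chosen. For CD44 they were PLXND1, MFGE8 and PIK3C2B, at 0.081, 0.082 and 0.084. PLXND1 had 176 to 193 CPM in VENsens lines and 141, 140.1, 152, 189.6 and 155 CPM in VENins lines 1 to 5, a pattern by which it was chosen. For ICAM3 they were TMIE, DENND2D and DCLK2, at 0.033, 0.035 and 0.048. For CCR7, with an SD of 0.28, the nearest were GGT7, MYO1D and ITPKC, at 0.15, 0.155 and 0.16. For S1PR1, with an SD of 0.81, they were SLFN12, DYNLT3 and ZIC5, at 0.40, 0.42 and 0.44. Each of these was lowest in VENins line 5, at 0.392, 3.18 and 0.523 CPM, again a pattern by which they were chosen.

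RefSeq promoter windows of 250 bases before to 50 bases after an annotated start were given for 4 of 7 receptors, CXCR4, CD44, S1PR1 and ICAM3, and not for SELPLG, PECAM1 and CCR7. The windows of CXCR4 and CD44 are printed because these were the receptors with an unadjusted p under 0.05, in opposite directions. The CXCR4 window is the most upstream of its 3 annotated starts, on the minus strand at chr2:136118100-136118399, and the CD44 window is on the plus strand at chr11:35138921-35139220, both in GRCh38.p14 and written 5′ to 3′. Capitals mark matches on either strand to a GC box (GGGCGG), the element of SP1, a CACCC element (CACCC), bound by KLF factors, a FOXO element (TGTTTAC) or a HIF element (ACGTG); matches may overlap.
CXCR4: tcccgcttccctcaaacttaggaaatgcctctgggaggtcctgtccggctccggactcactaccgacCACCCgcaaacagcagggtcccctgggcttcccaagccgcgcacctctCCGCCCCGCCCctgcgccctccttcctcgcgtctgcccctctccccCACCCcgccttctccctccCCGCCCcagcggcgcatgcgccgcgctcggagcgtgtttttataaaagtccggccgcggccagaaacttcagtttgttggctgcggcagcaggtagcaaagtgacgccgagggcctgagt
CD44: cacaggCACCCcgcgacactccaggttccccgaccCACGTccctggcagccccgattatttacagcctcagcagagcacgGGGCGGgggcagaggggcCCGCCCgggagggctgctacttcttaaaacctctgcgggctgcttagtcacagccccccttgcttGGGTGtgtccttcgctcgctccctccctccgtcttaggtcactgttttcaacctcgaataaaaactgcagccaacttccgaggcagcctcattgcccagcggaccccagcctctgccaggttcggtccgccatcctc
The CXCR4 window holds 3 GC boxes and 2 CACCC elements and no FOXO or HIF match. The CD44 window holds 2 GC boxes, 2 CACCC elements and 1 HIF element and no FOXO match. Among all 35116 promoter windows, 45.0% hold a GC box, 59.9% a CACCC element, 3.42% a FOXO element and 21.4% a HIF element. A match is a description of the letters, not a binding site or a cause. The transcripts of 7 regulators were looked at beside these letters, and edgeR with the line number called none of them. SP1 had 245 CPM ± 17.0 (SD, n = 5) in VENsens and 218 CPM ± 8.89 (SD, n = 5) in VENins lines, a log2 fold change of -0.17 (adjusted p = 0.182 in edgeR and 0.0430 in DESeq2 without the line number, 0.0430 to 0.620 over 13 alternatives). FOXO3, of the forkhead family, differed by 0.10 on the log2 scale (adjusted p = 0.50, edgeR), and by 0.035 to 0.17 with a line pair left out. KLF2, which in lymphocytes drives S1PR1, stood at 0.791 CPM and CD69, which removes S1PR1 from the surface, at 25.9 CPM; both were named after their values were seen. The median over the 7 was -0.0090 and took either sign with a line pair left out (-0.063 without pair 1, 0.035 without pair 5).

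Other genes of homing and adhesion were taken from 10 lists that hold 171 genes, of which 123 were tested. Called were 0 genes higher and 1 lower, ITGA5, beside 0.197% of all tested genes, while 5 had an unadjusted p under 0.05 and were higher and 20 were lower, together 20.3% of those tested, beside 16.2% of all tested genes. Values of the groups did not overlap for 2 that were higher and 5 that were lower, 5.69% of those tested, beside 4.66% of all tested genes. The median log2 fold change was -0.051 and 84 of 123 were lower, where 48.9% of all tested genes were. Without the line number edgeR called 3 of them, SPN, B4GALT1 and ITGAL, all lower, where it called 0.889% of all tested genes. DESeq2 with the line number called the same 3, beside 1.3% of all tested genes. Without it, DESeq2 called 1 higher, RGS10, and 6 lower, SPN, B4GALT1, ITGAL, SP1, PIK3CG and ITGB2, beside 4.41% of all tested genes. With no filter on low counts edgeR called 2 of 157 list genes higher and 10 lower, where it called 664 of all 32884 genes. With VENins line 4 alone left out, without the line number, it called 1 of 123 higher and 10 lower, beside 4.65% of all tested genes, and without line pair 4 1 of 124 higher and 5 lower, beside 1.97%. Without line pair 1, 2, 3 or 5 it called 0 of 123. Of all tested genes it called only 57 of 16776, 6 of 16770, 17 of 16739 and 9 of 16801 in these settings, so that a count of 0 does not set the lists apart. With VENins line 5 alone left out, without the line number, it called 0 higher and 5 lower, where it called 502 of 16905 genes. In the accounts of single lists, called refers to edgeR with the line number, and each median of the log2 fold changes is followed by its range when a line pair was left out.

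Of 21 other chemokine receptors, 6 were tested and none was called (median -0.19, -0.21 to -0.12), and CCR2, CCR3, CCR6, CXCR5 and ACKR1 were listed at 0, which leaves their level unknown. By length-scaled level CXCR4 stood at 511 TPM, against 5.28 TPM for the next of those with reads, ACKR2, a scavenger of inflammatory chemokines with 10.8 CPM. CXCR2, a neutrophil chemokine receptor, had 0.625 CPM ± 0.166 (SD, n = 5) in VENsens and 0.412 CPM ± 0.144 (SD, n = 5) in VENins lines (log2 fold change -0.60, adjusted p = 0.356, edgeR). ACKR3, the other receptor for CXCL12, named after its value was seen, was at 0.0836 CPM. Of 10 ligands and selectins, 3 were tested and none was called (median -0.14, -0.20 to -0.083). CD38, an ectoenzyme and ligand of PECAM1, had 122 CPM ± 8.32 (SD, n = 5) in VENsens and 111 CPM ± 12 (SD, n = 5) in VENins lines (log2 fold change -0.14, adjusted p = 0.288, and -0.20 to -0.083 with a line pair left out, edgeR). CXCL12 itself was at 0.0576 CPM.

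Of 15 S1P receptors and enzymes, 11 were tested and none was called (median -0.10, and -0.027 without line pair 2 to -0.097 without line pair 4). S1PR4, a receptor mostly of blood and lymphoid cells, was the most abundant S1P receptor at 114 TPM, against 1.17 TPM for S1PR2 and 0.607 TPM for S1PR1. Its level was 63.3 to 77.8 CPM in VENsens and 70.2 to 87.9 CPM in VENins lines, with VENins line 5 highest (log2 fold change 0.12, adjusted p = 0.388, and 0.062 to 0.19 with a line pair left out, edgeR). CERS2, a ceramide synthase, had 69.3 CPM ± 3.15 (SD, n = 5) in VENsens and 64.6 CPM ± 3.42 (SD, n = 5) in VENins lines (log2 fold change -0.10, adjusted p = 0.377, edgeR). S1PR2 is named here after its value was seen.

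Of 38 genes of chemoattractant receptor signalling and turnover, 37 were tested and none was called (median -0.022, -0.031 to 0.00096, turning positive without line pair 4). GNAI1, an inhibitory G-protein subunit that couples CXCR4 to its effectors, had 142 to 166 CPM in VENsens lines and 84.0, 86.8, 138, 182 and 111 CPM in VENins lines 1 to 5. VENins line 4 was above and the other 4 were below all VENsens lines. The log2 fold change was -0.40 (adjusted p = 0.130, edgeR), and -0.57 without line pair 4 (adjusted p = 0.000505, edgeR; 1.52e-07 to 0.575 over 13 alternatives). PIK3CG, the lipid kinase activated by G proteins in leukocytes, had 99.2 to 128 CPM in VENsens and 82.8 to 105 CPM in VENins lines (log2 fold change -0.26, adjusted p = 0.139 in edgeR and 0.0335 in DESeq2 without the line number, 0.00599 to 0.575 over 13 alternatives). RHOA, the small GTPase of cell contraction, was the most abundant at 882 CPM (log2 fold change -0.016, adjusted p = 0.903, edgeR).

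Of 12 selectin ligand carriers and glycosylation genes, 10 were tested, none was called and CD24 was listed at 0 (median -0.029, -0.061 to -0.015). B4GALT1, a galactosyltransferase that builds the chains on which selectin ligands are made, had 69.9, 73.9, 71.4, 71.1 and 70.5 CPM in VENsens lines 1 to 5, and 60.2, 58.9, 59.4, 59.9 and 58.7 CPM in VENins lines 1 to 5. All VENins lines, line 4 included, lay below all VENsens lines, with little spread in either group. The log2 fold change was -0.26 (SE 0.053) with an adjusted p of 0.0580 in edgeR's test, 0.0105 without the line number and 0.00778 in DESeq2 with it (2.29e-06 to 0.429 over 13 alternatives). SPN, or CD43, a large mucin of leukocytes that bears such chains, had 563 to 591 CPM in VENsens and 498 to 523 CPM in VENins lines, again without overlap (log2 fold change -0.18, adjusted p = 0.108 in edgeR, 0.0323 in DESeq2 with the line number, 0.000177 to 0.518 over 13 alternatives). By length, SPN stood at 195 TPM against 0.639 TPM for SELPLG.

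Of 31 receptors of the immunoglobulin family and other adhesion receptors, 20 were tested and none was called (median -0.092, -0.10 to -0.060), and ICAM4, VCAM1, CD99 and PVR were listed at 0. ICAM3 was the most abundant ICAM with reads at 129 TPM, ahead of ICAM2 at 38.2 TPM and ICAM1 at 10.2 TPM, 2 relatives named after their values were seen. Like ICAM3, ICAM2 was highest in VENins line 5 and lowest in VENins line 1, at 55.4 and 42.2 CPM. ALCAM, an adhesion molecule that binds CD6, differed by -0.20 on the log2 scale (adjusted p = 0.155, edgeR), and CD58, the ligand of CD2, by 0.19 (adjusted p = 0.213, edgeR). CD164, a sialomucin of haematopoietic progenitors, was the most abundant with reads at 659 CPM (log2 fold change -0.093, adjusted p = 0.480, and -0.15 to -0.043 with a line pair left out, edgeR).

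Of 19 hyaluronan and CD44 partners, 13 were tested and none was called (median -0.051, -0.069 to -0.036). MMP14, the membrane protease that cuts CD44 from the surface, had 69.5 to 78.7 CPM in VENsens lines and 55.7, 50.7, 67.1, 84.4 and 36.3 CPM in VENins lines 1 to 5. As for GNAI1, VENins line 4 was above and the other 4 were below all VENsens lines (log2 fold change -0.38, adjusted p = 0.166, in edgeR). Without line pair 4 the log2 fold change was -0.54 (adjusted p = 0.00570, edgeR) and without line pair 5, whose VENins line was the lowest, it was -0.21 (adjusted p = 0.308, edgeR; 1.37e-05 to 0.576 over 13 alternatives). ADAM10, another sheddase of CD44, was the most abundant at 850.3 CPM (log2 fold change -0.17, adjusted p = 0.221 in edgeR, 0.0419 to 0.695 over 13 alternatives). Of the 6 signalling partners of PECAM1, all were tested and none was called (median -0.056, -0.060 to -0.016), so that the phosphatases it recruits were measured although the receptor was not. PTPN6, or SHP-1, had 394 to 471 CPM in VENsens lines and 413, 465, 413, 373 and 578 CPM in VENins lines 1 to 5 (log2 fold change 0.11, adjusted p = 0.551, and -0.0031 without line pair 5 to 0.18 without line pair 1, edgeR). INPP5D, or SHIP-1, differed by -0.15 on the log2 scale (adjusted p = 0.248 in edgeR, 0.0352 to 0.700 over 13 alternatives).

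Of 12 integrin partners, which bind ICAMs, VCAM1 and matrix, 10 were tested, all 10 had a negative log2 fold change (median -0.23, -0.25 to -0.22) and ITGA5 was called. ITGA5, the fibronectin receptor subunit, had 37.5, 42.4, 39.8, 38.2 and 41.1 CPM in VENsens lines 1 to 5, and 18.3, 16.6, 25.3, 41.1 and 16.4 CPM in VENins lines 1 to 5. VENins line 4 was again at the VENsens level, and the other 4 lines were below all VENsens lines. The log2 fold change was -0.84 (SE 0.16) with an adjusted p of 0.0425 in edgeR's test, and -1.09 without line pair 4 (adjusted p = 2.25e-05, edgeR). In edgeR the call held with RLE size factors (adjusted p = 0.0393) and library size alone (0.0332). It also held with both VENins line 4 and the line number left out (4.45e-05, edgeR). With no filter on low counts edgeR gave an adjusted p of 4.34e-23, although the log2 fold change was -0.83, close to the -0.84 with the filter. That setting called 664 of all 32884 genes, and its p is not taken as support for the call. The call was lost in edgeR without the line number, with all lines (adjusted p = 0.0602) or with VENins line 5 left out (0.0543). It was also lost in DESeq2 (0.0616 with the line number and 0.0585 without it) and, in edgeR, without line pairs 1, 2, 3 or 5 (0.0605, 0.429, 0.0585 and 0.0996). The log2 fold changes in these settings were between -0.89 and -0.65. ITGAL, the LFA-1 subunit that binds ICAM3, had 16.0 to 22.6 CPM in VENsens and 10.5 to 14.8 CPM in VENins lines, without overlap (log2 fold change -0.56, SE 0.11, adjusted p = 0.0552 in edgeR and 0.00367 in DESeq2 with the line number, 4.13e-07 to 0.429 over 13 alternatives). ITGA4, which pairs to bind VCAM1, was the most abundant at 112 CPM (log2 fold change -0.22, adjusted p = 0.155 in edgeR, 0.0319 to 0.593 over 13 alternatives, called in 2 of them).

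**Figure D5:**
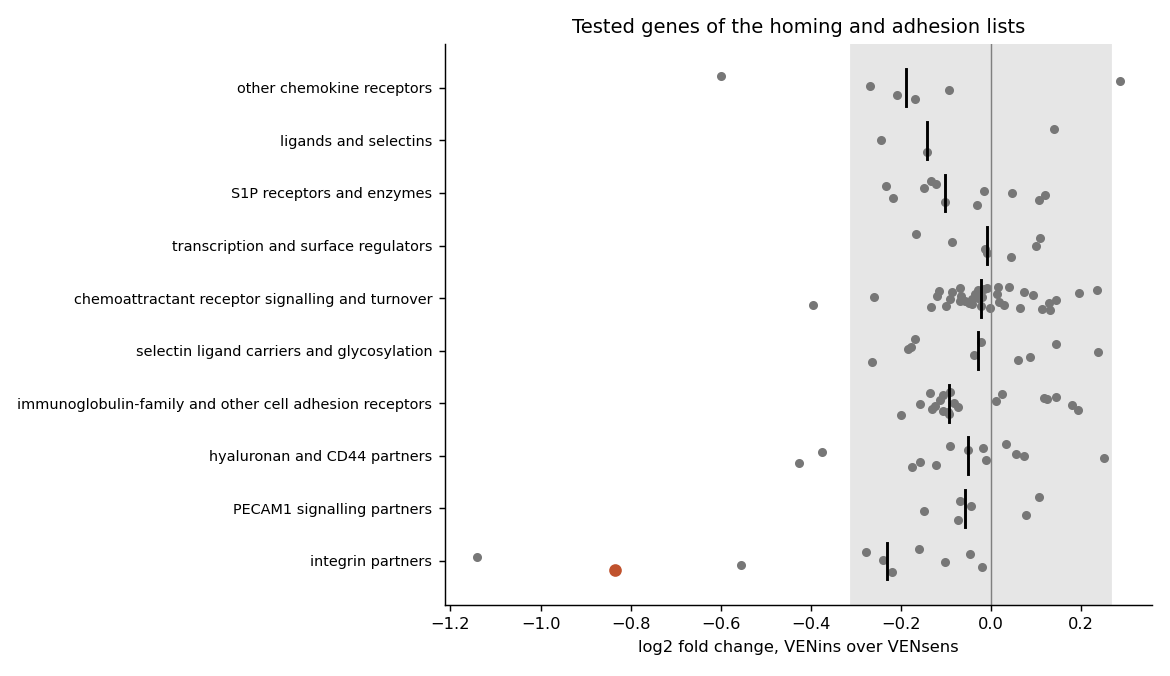
Log2 fold change of VENins over VENsens lines (horizontal axis) for each tested gene of the 10 lists. Each point is 1 gene, the orange point is ITGA5 (-0.84), black bars are list medians, from -0.23 for integrin partners to -0.0090 for transcription and surface regulators, and the grey band runs from the 5th to the 95th percentile of all tested genes, -0.31 to 0.27.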

How the data were processed

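RNA of 5 VENsens and 5 VENins lines of RS4;11 had been sequenced, 1 library per line. For each library, the authors deposited raw counts of reads per Ensembl gene; the submitters' processing notes name bcl2fastq 2.20.0.422, Bowtie2 2.3.5.1, SAMtools 1.9, HTSeq 0.9.1 and the build hg19 (GRCh37). The kit, TruSeq RNA v2, does not mark strand; the strand setting of the counting and the annotation release are not given in the sources used here. The files hold 38491516 to 52960365 reads per library, of which 52.7% to 54.2% were counted on genes; entries for the other reads were left out. Genes near 1 CPM rest on few counts and have wide counting intervals.

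Gene names, lengths and chromosomes came from GENCODE 29, a later build, by identifier. Counts were filtered with filterByExpr (minimum count 10, total 15), normalized by TMM and fitted with edgeR 4.0.16 (quasi-likelihood F test, R 4.3.3) on the line number and the group, since the study describes a paired analysis. p-values were adjusted over all tested genes. Alternatives were no line number, DESeq2 1.42.0 with and without it, RLE size factors, library size alone, no filter, each line pair left out, and, added after values were seen, VENins line 4 or 5 left out without the line number and from the coefficients of variation. The steps were tested on simulated data. Tables and plots were made in Python 3.11.15 (pandas 2.3.3, matplotlib 3.10.9).

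All 7 members are named. From each list come the called genes, the 2 tested genes with the smallest p and the most abundant one; for each member above the median SD of tested protein-coding genes (0.12 in log2 CPM), the 3 genes with the most similar profile. Exceptions are marked where they stand, and some genes that the rule takes are not reported here. The members and lists were chosen with earlier results of these data known.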

Additional observations from a re-analysis of the deposited data

Results flagged for a closer look

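CXCR4 in VENins line 4, at 385 CPM, lay far from the other 4 VENins lines, which had 453 to 480.2 CPM: its gap to the nearest of them was 0.719 of the range of the group, above Dixon's 95% critical value of 0.71 for 5 samples. Among 12 groups of 5 values looked at, the 6 tested receptors in both groups, it was the only one past that value, and chance alone takes about 1 in 20 groups past it. The counts of this library were not low, with 25394653 reads on genes and 9798 on CXCR4. The same line had VENsens levels of CD44 and ITGA5, but lay below all VENsens lines for B4GALT1, SPN and ITGAL and above all of them for GNAI1 and MMP14. The cause was not tested.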

How the results depend on the processing

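The number of genes called moved with the method and with single line pairs. It was 33 with edgeR and the replicate block, 149 with no replicate block, 217 and 739 in DESeq2 with and without it, 664 with no filter, and 6 to 331 when a line pair was left out (6 without pair 2, 331 without pair 4); RLE size factors and library size alone gave 35 and 44. Leaving out VENins line 4 or 5 alone, without the block and added after values were seen, gave 783 and 502. With no filter edgeR gave the lowest adjusted p of all settings for ITGA5, ITGAL, ITGA4, GNAI1, PIK3CG, MMP14, ADAM10, PAX5 and TIE1. Their log2 fold changes were close to those with the filter, and the lower end of these ranges rests on that setting alone. Same-numbered lines did not deviate together (correlations -0.15, 0.061, -0.013, -0.0050 and -0.12, each below the best with another number). Whether they shared handling is not given in the sources used here, and the study describes a paired analysis. The block changed no call among the receptors. CXCR4 ran from 0.10 to 0.21 when a line pair was left out and was called only without VENins line 4 (log2 fold change 0.20). CD44 ran from -0.36 to -0.17 and was called without line pair 4 and without VENins line 4 alone (-0.32). SELPLG ran from -0.33 to 0.15 and reversed without pairs 1, 2 or 5 (0.026, 0.0049 and 0.15) and without VENins line 5 alone (0.10). ICAM3 ran from -0.039 to 0.092 and reversed without pair 5 (-0.039) and without VENins line 5 alone (-0.035). PTPN6 ran from -0.0031 to 0.18 and reversed without pair 5. CCR7 and S1PR1 kept their sign and were never called (-0.29 to -0.063 and -0.78 to -0.23). The cause was not tested. SELPLG and S1PR1 rest on few reads, and their VENins lines spread 1.77 and 2.69 times as far as counting error. DESeq2 gave no adjusted p for either.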
